A study of Danio rerio with 9 samples.

Results

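A set of 10 genes of heme and porphyrin handling was described in Müller glia of the adult zebrafish retina, at 0, 8 and 16 hours post lesion (hpl). They are soul5, blvra, blvrb, abcb6a, hmox1a, hmox2a, alas1, fech, urod and cpox. The members were chosen by name with earlier results of these data known, and all 10 were found among the 33737 genes of the count table by the symbol in the authors' table. All 10 were among the 19875 genes with enough counts to be tested. soul5, blvra and abcb6a were taken for their rises at 8 hpl, so their differences between 8 and 0 hpl are given as a description, with no test. The other comparisons share their 0 or 8 hpl libraries with that choice, so for these 3 genes they carry no test either. Which values bore on the choice of the other 7 is not known.

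Heme is an iron-porphyrin ring that serves as the cofactor of cytochromes, catalases, globins and other proteins. Its synthesis starts and ends in the mitochondrion, with steps in the cytosol between, and its porphyrin intermediates can be excited by light and then form reactive oxygen. Heme oxygenases open the ring to biliverdin, releasing iron and carbon monoxide, and biliverdin reductases turn biliverdin into bilirubin. Müller glia are radial glia that span the retina and can give rise to new neurons after injury in zebrafish.

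All fish were of the line Tg(gfap:EGFP)mi2002, in which the gfap promoter drives green fluorescent protein in glia, and were 8 to 11 months old. The 0 hpl group was unlesioned, and the 8 and 16 hpl groups were taken after 30 min of free swimming in light of over 120000 lux, which damages photoreceptors. Cells from dissociated neural retinas were sorted by fluorescence, and RNA sequencing gave 3 libraries in each group. The labels do not say whether separate animals or pools stand behind each library. The p-values therefore set group differences only against the spread among these samples, and that spread may be technical. No unlesioned fish collected with the 8 or 16 hpl fish are among the samples. The lesion, the light itself and the hour of collection therefore cannot be told apart in any comparison with 0 hpl. Between 8 and 16 hpl, the time after the lesion cannot be told apart from the hour of light or of collection.

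Total expected counts lay between 11714633 and 26608088 per library. On the leading principal component of log2 CPM (normalised read count, scaled to a common library size) 3 libraries stood apart. These were 8 hpl replicates 1 and 3 and 16 hpl replicate 2 (the 3 outlying libraries, a name that refers to this component only). Within 8 hpl, replicates 1 and 3 were the most alike (Pearson's r of log2 CPM 0.977). There replicate 2 correlated with replicates 1 and 3 at 0.936 and 0.926. At 16 hpl, replicate 2 correlated with replicates 1 and 3 at 0.923 and 0.895, and those with each other at 0.956. Without the 3 outlying libraries replicate 2 alone stands for 8 hpl, and replicates 1 and 3 for 16 hpl. For single genes only sizes are given from that fit, since 1 library in a group shows no spread. Of 10 Müller glia markers listed, 6 were matched, with a summed level of 681 to 1116 CPM over all libraries. Their genes went both ways. The means at 0, 8 and 16 hpl were 68.4, 81.6 and 133 CPM for gfap, 33.2, 45.2 and 66.4 for vim, and 2.87, 3.63 and 4.87 for s100b. Those of rlbp1a were 393, 347 and 231 CPM, of cahz 428, 402 and 286, and of aqp1a.1 64.8, 14.7 and 22.9. Rod markers, 8 of 9 matched, summed to 69830 to 116700 CPM at 0 hpl, 90360 to 97980 at 8 hpl and 43530 to 71060 at 16 hpl, so photoreceptor RNA was in every library. In such bulk samples fewer cells of a type and less RNA per cell cannot be told apart. Red blood cells make most of the heme of the body, and 6 of their 10 listed markers were matched. Those 6 summed to 6.26 to 7.85 CPM at 0 hpl, 8.94 to 9.49 at 8 hpl and 7.53 to 9.52 at 16 hpl. Erythroid alas2, the globin gene hbaa2 and epb41b stayed under 1 CPM in every library, and the globin gene hbaa1 reached 1.77 CPM in 1 library at 8 hpl (means 0.15, 0.61 and 0.22 CPM at 0, 8 and 16 hpl). Most of the sum was gata1a, with means of 2.92, 3.30 and 3.01 CPM, and hemgn, with means of 4.03, 5.23 and 5.04 CPM.

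The synthesis enzymes did not move as a block. alas1 (ENSDARG00000021059) encodes the housekeeping form of aminolevulinate synthase, which makes the precursor of the ring and limits the rate of the pathway in most tissues. Its level was 50.3, 61.0 and 79.0 CPM in the 0 hpl libraries (replicates 1, 2 and 3, in that order here and below), 78.7, 82.6 and 78.7 at 8 hpl, and 87.6, 122 and 123 at 16 hpl. The 0 and 8 hpl libraries overlapped, while all 3 libraries at 16 hpl lay above all others. The log2 fold changes were 0.33 ± 0.21 for 8 hpl (SE here and below; edgeR adjusted p = 0.496) and 0.80 ± 0.21 at 16 hpl (adjusted p = 0.0860), neither past the threshold of 0.05. At 16 hpl alas1 was called by DESeq2 (0.80, adjusted p = 0.0128), and its log2 fold change was 0.73 on dropping the 3 outlying libraries.

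urod (ENSDARG00000006818) encodes uroporphyrinogen decarboxylase, an enzyme of the cytosolic steps. The libraries measured 5.61, 5.27 and 6.26 CPM at 0 hpl, 30.6, 6.39 and 30.9 at 8 hpl and 8.65, 14.7 and 7.85 at 16 hpl. At 8 hpl replicates 1 and 3 were 5.36 and 5.41 times the 0 hpl mean, and replicate 2 was 1.12 times that mean. The log2 fold change at 8 hpl was 1.99 ± 0.51 and was not called (adjusted p = 0.0730). It was 2.43 without 8 hpl replicate 2 (adjusted p = 0.00146), but 0.16 on dropping the 3 outlying libraries, so which libraries are kept decides this value. DESeq2 called it (adjusted p = 0.00306).

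cpox (ENSDARG00000062025) encodes coproporphyrinogen oxidase, which acts after urod in the pathway, and it was the member whose level was lower after the lesion. Its level was 4.47, 5.41 and 4.01 CPM at 0 hpl, then 2.24, 2.81 and 2.6 at 8 hpl and 1.77, 4.31 and 2.80 at 16 hpl. The 8 hpl libraries lay below those of 0 hpl, but the log2 fold changes of −0.86 ± 0.36 at 8 hpl and −0.64 ± 0.36 at 16 hpl were not called (adjusted p = 0.263 and 0.453).

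fech (ENSDARG00000003462) encodes ferrochelatase, the mitochondrial enzyme that puts iron into the finished ring. The libraries measured 7.56, 8.98 and 7.01 CPM at 0 hpl, 59.6, 35.9 and 50.3 at 8 hpl and 18.9, 13.3 and 25.1 at 16 hpl. The 3 groups did not overlap. fech rose at 8 hpl, with a log2 fold change of 2.63 ± 0.28 or 6.18-fold (adjusted p = 0.00192). This call was made in all 9 fits without 1 library. The log2 fold change was 2.18 without the 3 outlying libraries, where replicate 2 alone stands for 8 hpl. At 16 hpl fech was still above 0 hpl, at 1.28 ± 0.27 or 2.42-fold (adjusted p = 0.0434). That second call was made in 2 of the 9 fits without 1 library, those without 8 hpl replicate 2 and 16 hpl replicate 2. In the other 7 fits, without 0 hpl replicates 1, 2 or 3, 8 hpl replicates 1 or 3, or 16 hpl replicates 1 or 3, its adjusted p reached 0.189. From 8 to 16 hpl the difference of −1.35 ± 0.27 was not called (adjusted p = 0.106). It was called on dropping 8 hpl replicate 2 (adjusted p = 0.0166), and was −0.70 on dropping the 3 outlying libraries.

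**Figure D1:**
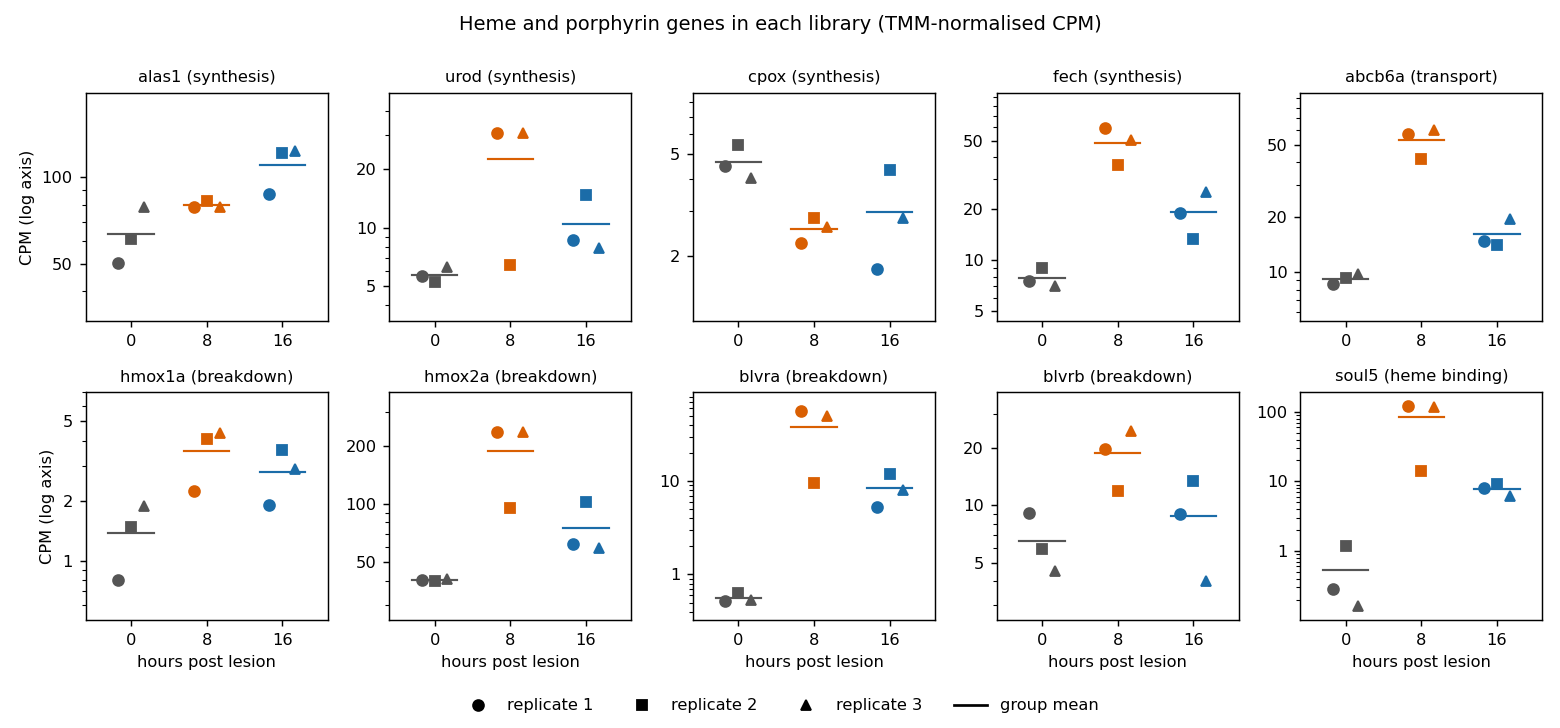
Normalised level (CPM, log axis) of each of the 10 genes against hours post lesion, with 1 point per library, shaped by replicate number, and a bar at each group mean; the vertical scale differs between panels. For soul5, blvra, hmox2a and urod, 8 hpl replicate 2 lies well below replicates 1 and 3, for example at 13.9 CPM against 120 and 118 for soul5. The 3 groups of soul5, fech and abcb6a do not overlap.

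The transporter of the set was high at 8 hpl in every library. abcb6a (ENSDARG00000063297) is a homologue of mammalian ABCB6, a transporter that carries porphyrins. Its level was 8.59, 9.25 and 9.73 CPM at 0 hpl, then 57.3, 41.6 and 60.2 at 8 hpl and 14.8, 14.2 and 19.5 at 16 hpl. The 3 groups did not overlap. Its log2 fold change at 8 hpl was 2.53 ± 0.22, and 2.17 without the 3 outlying libraries. From 8 to 16 hpl the log2 difference was −1.72 ± 0.21, between −1.88 and −1.62 on dropping any 1 library, and −1.28 on dropping the 3 outlying libraries. Against 0 hpl its level at 16 hpl differed by 0.81 ± 0.21, and by 0.90 on dropping those 3.

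Among the breakdown enzymes, hmox2a, of the constitutive form, rose at 8 hpl. The gene of the inducible form, hmox1a, had a higher mean at 8 hpl than at 0 hpl, at a few CPM, and was not called. hmox2a (ENSDARG00000055101) encodes heme oxygenase 2, in mammals the constitutive form of the enzyme. The libraries measured 40.5, 39.8 and 40.5 CPM at 0 hpl, 237, 94.8 and 235 at 8 hpl and 62.1, 103 and 59.1 at 16 hpl. All lesioned libraries lay above all 0 hpl libraries, and 16 hpl replicate 2 lay above 8 hpl replicate 2. hmox2a rose at 8 hpl with a log2 fold change of 2.23 ± 0.35 or 4.69-fold (adjusted p = 0.0116). The value was 1.23 without the 3 outlying libraries, where replicate 2 alone stands for 8 hpl. Leaving out 0 hpl replicate 1, 2 or 3 ended the call (adjusted p = 0.0787, 0.0701 and 0.0630), as did leaving out 8 hpl replicate 1 or 3 (adjusted p = 0.0504 and 0.0541). At 16 hpl the log2 fold change against 0 hpl was 0.89 ± 0.34 (adjusted p = 0.246). On dropping the 3 outlying libraries it was smaller, at 0.59. From 8 to 16 hpl the difference of −1.34 ± 0.34 was not called (adjusted p = 0.141), and was called on dropping 8 hpl replicate 2 (−1.66, adjusted p = 0.00912).

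hmox1a (ENSDARG00000027529) encodes heme oxygenase 1, in mammals the form induced by heme and oxidative stress. Its level was 0.80, 1.47 and 1.87 CPM at 0 hpl, then 2.24, 4.06 and 4.39 at 8 hpl and 1.90, 3.60 and 2.88 at 16 hpl. All lesioned libraries lay above the 0 hpl libraries, 16 hpl replicate 1 by a small margin. Its log2 fold change was 1.36 ± 0.44 at 8 hpl (adjusted p = 0.147). At 16 hpl it was 1.01 ± 0.44 (adjusted p = 0.321), and neither was called. In hmox2b (ENSDARG00000078452), the second heme oxygenase 2 gene and not a member, the group means were 91.8 ± 5.68, 100.2 ± 7.48 and 91.0 ± 13.0 CPM at 0, 8 and 16 hpl (SD, n = 3), and its log2 differences from 0 hpl were 0.13 (adjusted p = 0.787) and −0.01 (adjusted p = 0.979).

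blvra (ENSDARG00000059857) encodes biliverdin reductase A, which makes bilirubin from the main biliverdin of adult tissue. Its 0 hpl libraries held 9, 14 and 10 counts, or 0.52, 0.63 and 0.53 CPM. The 8 hpl libraries stood at 56.0, 9.61 and 49.5 CPM and those of 16 hpl at 5.28, 11.8 and 8.09 CPM. Every lesioned library lay at 9.45 times the 0 hpl mean or more, and 8 hpl replicate 2 lay within the range of 16 hpl. The log2 fold change at 8 hpl was 6.08 ± 0.69, and 4.08 without the 3 outlying libraries. At 16 hpl the log2 difference from 0 hpl was 3.89 ± 0.66 or 14.8-fold, between 3.54 and 4.14 on dropping any 1 library, and 3.55 on dropping the 3 outlying libraries. From 8 to 16 hpl it was −2.19 ± 0.55, and −2.65 without 8 hpl replicate 2. That difference shrank to −0.52 on dropping the 3 outlying libraries.

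blvrb (ENSDARG00000096829) encodes biliverdin reductase B, which in mammals also works as a flavin reductase. The libraries measured 9.16, 5.90 and 4.55 CPM at 0 hpl, 19.8, 11.8 and 24.4 at 8 hpl and 9.04, 13.4 and 4.0 at 16 hpl. The 8 hpl libraries lay above those of 0 hpl, and the 16 hpl libraries spanned the range of 0 hpl. Neither log2 fold change was called, at 1.51 ± 0.44 for 8 hpl (adjusted p = 0.110) and 0.44 ± 0.44 for 16 hpl (adjusted p = 0.721). At 8 hpl it was called without 8 hpl replicate 2 (1.76, adjusted p = 0.0483) and without 16 hpl replicate 2 (1.52, adjusted p = 0.0481), and by DESeq2 (1.52, adjusted p = 0.0184). On dropping the 3 outlying libraries it was 0.85.

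soul5 (ENSDARG00000075015), named for a heme-binding protein of the SOUL family, had the largest ratio of highest to lowest library of the 10 genes. The 0 hpl libraries held 5, 26 and 3 counts, or 0.29, 1.16 and 0.16 CPM. At 8 hpl it stood at 120, 13.9 and 118 CPM, and at 16 hpl at 8.13, 9.24 and 6.08 CPM. The 3 groups did not overlap, and at 8 hpl replicate 2 was the low library, by factors of 8.62 and 8.48 below replicates 1 and 3. The log2 fold change at 8 hpl was 7.21 ± 0.93. It was 8.54 without 0 hpl replicate 2, the library that holds most of the 0 hpl counts, and 4.61 without the 3 outlying libraries. At 16 hpl the difference from 0 hpl was 3.79 ± 0.85, 5.11 without 0 hpl replicate 2, and 3.66 on dropping the 3 outlying libraries. From 8 to 16 hpl it was −3.42 ± 0.74. It was −3.92 without 8 hpl replicate 2, but −0.95 on dropping the 3 outlying libraries.

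**Figure D2:**
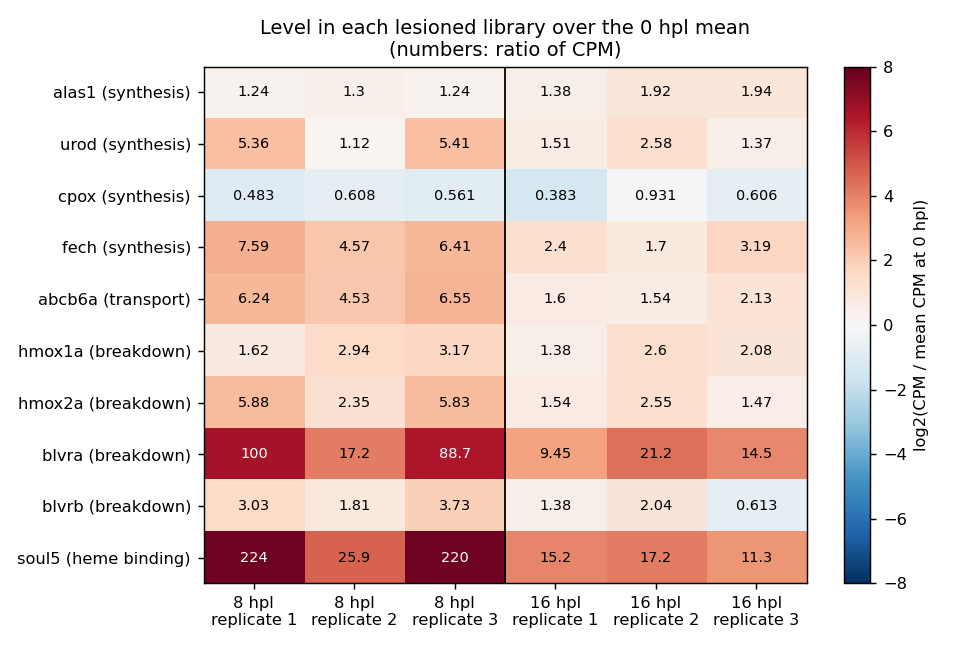
Ratio of the CPM of each lesioned library to the mean of the 0 hpl libraries, printed in each cell and coloured on a log2 scale, with genes as rows and libraries as columns. soul5 stands at 224 and 220 in 8 hpl replicates 1 and 3 against 25.9 in replicate 2, fech and abcb6a stand between 4.53 and 7.59 in all 3 libraries at 8 hpl, and cpox is below 1 throughout.

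At 8 hpl replicate 2 was the lowest of the 3 libraries for 7 of the 10 genes, a position it held in 42.9% of all genes tested and in 75.9% of the 378 genes called higher at 8 hpl. It was lower than replicate 1 by 8.62 times for soul5, 5.83 for blvra, 4.79 for urod and 2.5 for hmox2a. For blvrb, fech and abcb6a the same ratios were 1.67, 1.66 and 1.38. Genes of the clock and of the light response parted the libraries too. The period gene per2, induced by light, stood at 806, 278 and 831 CPM at 8 hpl, and the photolyase gene cry5 at 113, 34.6 and 127, while the clock repressor gene per1b was at 181, 1309 and 195. The part of collection time or light history in the heme genes was not tested. 16 hpl replicate 2, which also stands apart, was the highest of its group for 7 members and the lowest for abcb6a and fech. The share of all genes with that library highest was not worked out, so nothing is read from this count.

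Within the marker lists of other cell types, levels differed between groups in both directions. Microglia and macrophages take up and break down heme, and 5 of their 9 listed markers were matched, with sums of 183 to 548 CPM at 0 hpl, 739 to 875 at 8 hpl and 1056 to 1287 at 16 hpl. Nearly all of each sum was apoeb, an apolipoprotein gene, with means of 408, 787 and 1160 CPM. The means at 0, 8 and 16 hpl were 3.09, 2.29 and 2.63 CPM for irf8, 2.23, 2.29 and 3.26 for lcp1, and 1.37, 2.18 and 1.45 for ptprc, and marco stayed under 1 CPM in every library. Neutrophil markers, 4 of 6 matched, summed to 2.23 to 3.61, 5.07 to 10.4 and 22.5 to 299 CPM. The sum at 16 hpl was mostly the protease gene mmp9, which reached 294 CPM in replicate 2 (mean 110.2), while the means of lyz were 0.47, 1.55 and 2.76 CPM, those of npsn 0.72, 0.80 and 0.92, and those of mmp13a 0.30, 1.52 and 0.84. Cone markers, 8 of 11 matched, summed to 9424 to 12080 CPM at 0 hpl, 3050 to 5768 at 8 hpl and 4197 to 7926 at 16 hpl. At 8 hpl 4 of them had lower means than at 0 hpl, pde6h (7785 against 2257 CPM), gnat2 (1165 against 247.5), opn1sw2 (336.5 against 113) and opn1mw1 (369 against 140). The means of arr3a (677 against 901 CPM), opn1lw1 (68.7 against 109.5), gngt2a (134 against 161) and opn1sw1 (120.4 against 120.9) were higher or close. Pigment epithelium markers, 4 of 7 matched, summed to 13.5 to 17.0, 8.37 to 13.6 and 9.57 to 11.8 CPM, with dct and tyr under 1 CPM in every library. The part of these cells in the heme genes was not tested.

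The 8 hpl comparison called 5 of the 10 genes, all higher, against 2.83% of all genes tested (1.9% higher and 0.931% lower). These were soul5, blvra, abcb6a, hmox2a and fech, and nothing is read from the count, since 3 of the 5 were chosen for it. Of the other 7 genes, 2 were called. The libraries of 8 and 0 hpl did not overlap for 9 genes, 8 of them higher and 1 lower, where all genes tested gave 13.9% and 12.9%. At 16 hpl 2 of the 10 genes, blvra and fech, passed the threshold, higher than at 0 hpl, against 2.09% of all genes tested (1.45% higher and 0.639% lower), and nothing is read from the count, which holds blvra. The libraries of 8 genes lay above those of 0 hpl without overlap and 0 below, where all genes tested gave 10.7% and 10.4%. From 8 to 16 hpl 1 of the 10 genes, abcb6a, passed it, lower, against 0.101% (0.0604% higher and 0.0403% lower), and nothing is read from that either, since it was chosen for its level at 8 hpl. Groups did not overlap there for 1 gene that was higher (alas1) and 3 that were lower (soul5, abcb6a and fech), against 8.49% and 8.34%. The median log2 fold changes of the 10 genes were 2.11 at 8 hpl and 0.88 at 16 hpl, beside 0.02 and 0.03 over all genes tested, and −1.23 from 8 to 16 hpl, beside 0.01. Without soul5, blvra and abcb6a the medians of the other 7 were 1.515, 0.87 and −1.07. Nothing is read from the medians of the 10 or from the counts without overlap, since both hold the 3 genes chosen for their rise. Which values bore on the choice of the other 7 is not known, so nothing is read from their medians or count called. The comparisons at 8 and 16 hpl share the 0 hpl libraries, and the last shares its libraries with both.

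**Figure D3:**
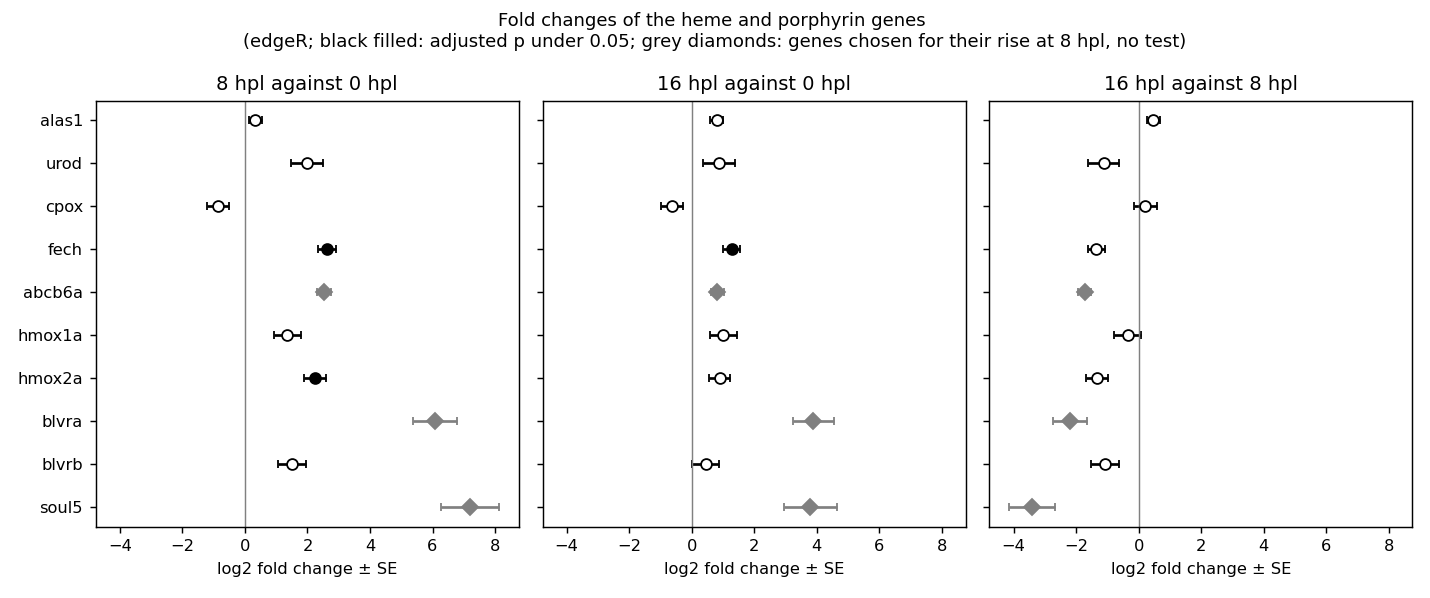
Log2 fold change with its SE (edgeR) of each gene in the 3 comparisons, on a common axis; filled black points passed an adjusted p of 0.05, and grey diamonds mark soul5, blvra and abcb6a, chosen for their rise at 8 hpl, with no test. hmox2a and fech are filled black at 8 hpl, at 2.23 and 2.63, and fech at 16 hpl against 0 hpl, at 1.28.

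The authors' deposited table gave log2 fold changes at 8 hpl from −0.99 for cpox to 7.75 for soul5. In the authors' deposited table all 10 genes had an adjusted p under 0.05 at 8 hpl, where 37.7% of its 15530 genes did. At 16 hpl the authors' deposited table had 7 of the 10 under that threshold, beside 13.2% of its genes. Those 7 were soul5, blvra, abcb6a, hmox2a, alas1, fech and cpox, with cpox lower at −1.22 (adjusted p = 0.0181 in the authors' deposited table). Both counts hold soul5, blvra and abcb6a, taken for their rises at 8 hpl in these data, so nothing is read from them. The sources used here do not give the model behind that table.

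Levels per transcript length, from the deposited FPKM (fragments scaled to transcript length and library size), let the genes be set beside each other. At 0 hpl alas1 (40.0 ± 9.58 FPKM; SD, n = 3) and hmox2a (36.1 ± 1.80) were highest, with overlapping libraries. Then came blvrb, urod, abcb6a, fech and cpox, between 7.28 and 3.1 FPKM, and hmox1a, blvra and soul5 were at 1.27 ± 0.51, 0.97 ± 0.22 and 0.61 ± 0.62 FPKM. At 8 hpl hmox2a had the highest mean, 176 ± 75.9 FPKM, with every library above those of alas1, and soul5 came next at 95.5 ± 69.1, above alas1 at 49.9 ± 1.25 and blvra at 49.5 ± 32.3. The libraries of soul5, at 135, 15.7 and 136 FPKM, lay on both sides of alas1, so that order does not hold beyond their spread. At 16 hpl alas1 (69.5 ± 12.3) and hmox2a (67.3 ± 24.4) again led, and blvra and soul5 stood at 10.7 ± 4.35 and 8.95 ± 1.90 FPKM.

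**Figure D4:**
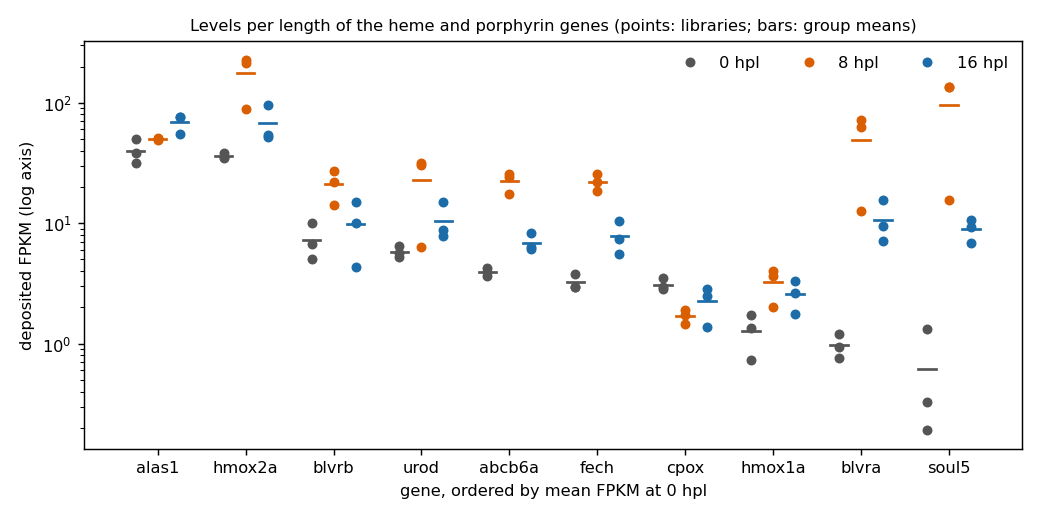
Deposited FPKM (log axis) of each gene in each library at 0, 8 and 16 hpl, with bars at the group means and genes ordered by their mean at 0 hpl. soul5 and blvra stand at the low end at 0 hpl, at means of 0.61 and 0.97, and reach means of 95.5 and 49.5 at 8 hpl, while alas1 stays between means of 40.0 and 69.5.

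Other genes of heme and iron handling, on 6 lists, were looked up for the same comparisons. Of 68 such genes besides the members, 52 were matched and 47 tested. These lists were chosen with earlier results of these data known, so nothing is read from the counts called on them. Which values bore on that choice is not known, so the adjusted p-values of genes named from these lists may be affected by it. At 8 hpl 3 of the 47 rose and 0 fell, where 1.9% and 0.931% of all genes tested did, with a median log2 fold change of 0.02, beside 0.02 over all genes tested. hebp2 (ENSDARG00000042630), whose mammalian namesake is the SOUL heme-binding protein, measured 12.5, 11.1 and 10.6 CPM at 0 hpl against 132, 42.7 and 136 CPM at 8 hpl. It rose by 3.19 ± 0.39 on the log2 scale or 9.10-fold (adjusted p = 0.00328), and was called in all 9 fits without 1 library. The log2 fold change was 1.90 without the 3 outlying libraries, where replicate 2 alone stands for 8 hpl. At 16 hpl hebp2 stood at 23.2, 19.2 and 22.6 CPM (0.92 against 0 hpl, adjusted p = 0.261).

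The other rises at 8 hpl were in nfe2l2a and nfe2l2b, zebrafish homologues of the gene of NRF2. In mammals this transcription factor switches on antioxidant genes and heme oxygenase 1. Whether both zebrafish genes act in that way was not tested. nfe2l2a (ENSDARG00000042824) went from 15.7 ± 3.27 to 58.0 ± 17.0 CPM (SD, n = 3), a log2 fold change of 1.88 ± 0.30 (adjusted p = 0.0129). Leaving out 0 hpl replicate 1 or 2, or 8 hpl replicate 1 or 3, ended the call (highest adjusted p = 0.0899). The log2 fold change was 1.29 without the 3 outlying libraries. nfe2l2b (ENSDARG00000089697) went from 0.89 ± 0.03 to 4.69 ± 1.84 CPM, at 2.40 ± 0.48 (adjusted p = 0.0311), a call lost on dropping 0 hpl replicate 1, 2 or 3 or 8 hpl replicate 1 or 3 (highest adjusted p = 0.145). Without the 3 outlying libraries the log2 fold change of nfe2l2b was 1.59. Both were among 8 tested genes of heme-sensing and MAF-site regulators, 2 of which rose and 0 fell, beside the same 1.9% and 0.931%.

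At 16 hpl 2 of the 47 genes rose against 0 hpl and 0 fell, where 1.45% and 0.639% of all genes tested did. hmbsa (ENSDARG00000008840), for hydroxymethylbilane synthase, an early enzyme of porphyrin synthesis, went from 1.90 ± 0.59 to 6.49 ± 2.05 CPM, at 1.77 ± 0.35 (adjusted p = 0.0308). keap1a (ENSDARG00000016132), for an adaptor protein that keeps NRF2 low, went from 5.26 ± 0.24 to 18.7 ± 8.26 CPM, at 1.83 ± 0.30 (adjusted p = 0.0134). Of the 9 fits without 1 library, hmbsa was called in the 2 that lacked 8 hpl replicate 2 or 16 hpl replicate 3, and lost on dropping 0 hpl replicate 1, 2 or 3, 8 hpl replicate 1 or 3, or 16 hpl replicate 1 or 2 (highest adjusted p = 0.131). The keap1a call was lost on dropping 0 hpl replicate 1, 2 or 3 (highest adjusted p = 0.0860). Without the 3 outlying libraries the log2 fold changes of hmbsa and keap1a were 1.48 and 1.41.

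Iron storage, uptake and export genes gave 0 calls among 10 tested by edgeR in either comparison with 0 hpl, with 0 at an unadjusted p under 0.05. With 2.83% and 2.09% of all genes called, 0 of 10 is near the background. The ferritin gene fth1a stood at 903 ± 105, 837 ± 111 and 857 ± 148 CPM at 0, 8 and 16 hpl. Transporters of porphyrin, heme and mitochondrial iron besides abcb6a gave 0 calls among 18 tested by edgeR at 8 hpl and at 16 hpl, with 4 at an unadjusted p under 0.05 each time. With the same background, the 0 of 18 says little of these genes. Between 16 and 8 hpl edgeR called 0 of the 47 genes, with 10 at an unadjusted p under 0.05, DESeq2 called 6 and limma voom 0. Of all 19875 genes tested the same tools called 20, 766 and 17. The share of all genes at an unadjusted p under 0.05 was not worked out, so nothing is read from the unadjusted counts.

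**Figure D5:**
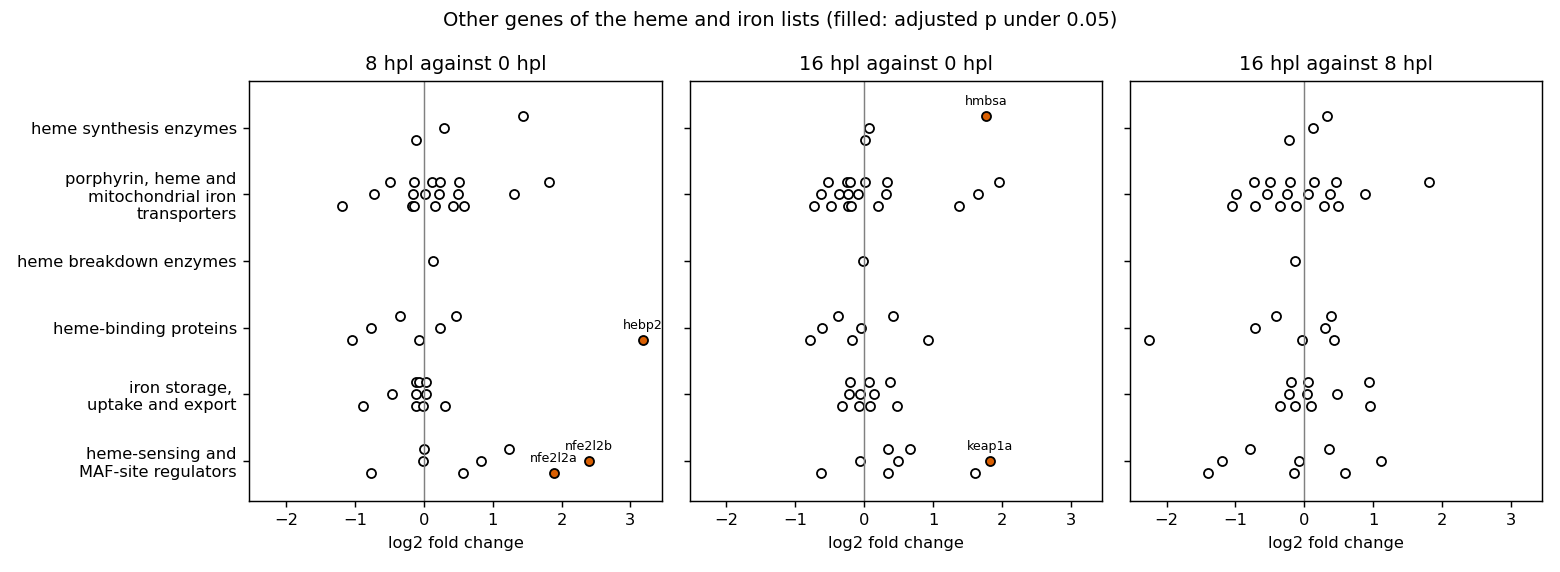
Log2 fold changes (edgeR) of the 47 tested genes of the heme and iron lists that are not members, by list, in the 3 comparisons on a common axis; filled points passed an adjusted p of 0.05 and are named. hebp2, at 3.19, stands apart from the other heme-binding proteins at 8 hpl, and the iron genes lie between −0.88 and 0.95 over the 3 comparisons, both values those of cp.

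The genes most like soul5 and blvra were named from 9327 genes with a symbol and a mean of at least 5 CPM, by Pearson's r of log2 CPM over the 9 libraries. The libraries share their groups and the split at 8 hpl, so r is a description only. Nearest to soul5 were slc27a6, of a family of fatty acid transport proteins (r = 0.992), cry5 (0.982), the retinol dehydrogenase gene rdh14b (0.982), blvra (0.976) and CHCHD4 (2 of 2), for a mitochondrial import protein (0.970). Nearest to blvra were cry5 (0.994), sec24d, for a vesicle coat protein (0.992), wdr24 (0.991), fam213b (0.988) and rdh14b (0.987). cry5, a photolyase gene of the cryptochrome family, measured 2.41, 2.41 and 1.98 CPM at 0 hpl against 16.4, 26.5 and 16.7 CPM at 16 hpl. Its order of groups was that of soul5 and blvra. Within the 10 genes, r with soul5 was 0.949 for fech, 0.942 for hmox2a, 0.914 for abcb6a and 0.853 for urod. It was 0.771 for blvrb, 0.699 for hmox1a, 0.376 for alas1 and −0.667 for cpox.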

How the data were processed

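The authors deposited RSEM expected counts per Ensembl gene, not whole numbers, an FPKM table called normalized by its name, and a table of their comparisons with log2 fold changes and adjusted p-values under limma column names, per the file headers. The submitters' processing notes name build Zv9, RSEM 1.2.22 and Bowtie2 2.2.6, limma 3.24.15 and edgeR 3.10.2, and Trim Galore 0.2.7. They give these no role, and the annotation release was not stated.

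Expected counts were rounded and fitted in edgeR 4.0.16 (R 4.3.3) over all 9 libraries, with filterByExpr, TMM factors, robust dispersions, the quasi-likelihood F test and Benjamini-Hochberg adjustment over 19875 genes at 0.05. SE was taken as the size of the log2 fold change divided by √F. CPM are TMM-normalised. DESeq2 1.42.0, limma voom 3.58.1, no filter, other size factors, a replicate block and left-out libraries were alternatives.

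The members and lists were chosen with earlier results of these data known. Named genes are the members, up to 3 called genes per list and comparison, hmox2b and fth1a (chosen after their values were seen), the 5 genes most like soul5 and blvra, and clock and marker genes for context. Paralogs with shared sequence may exchange reads.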

Additional observations from a re-analysis of the deposited data

How the results depend on the processing

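Over 16 alternative settings, counting each left-out library, 474 of the log2 fold changes of members and named list genes kept their direction and their side of the threshold, 58 lost their call, 25 gained one and 3 changed sign. The changes of sign were between 16 and 8 hpl, urod at 0.38 without the 3 outlying libraries, and cpox at −0.31 without the 3 outlying libraries and at −0.17 to 0.49 without 1 library, below 0 without 16 hpl replicate 2. None of these was called. The causes of the changes were not tested. Results not called in the fit of all 9 libraries that stayed uncalled are among the 474. Only results called in that fit could lose a call. The tally also holds soul5, blvra and abcb6a, and the fit with 1 library at 8 hpl, so nothing is read from it.

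Members called at 8 hpl numbered 5, 3 with limma voom and 4 to 7 without 1 library. At 16 hpl against 0 hpl they numbered 2, 5 with DESeq2, 0 with limma voom and 0 to 4 without 1 library. Between 16 and 8 hpl there was 1, with 5 for DESeq2, 0 with the 6 libraries compared alone and 0 to 6 without 1 library. Other list genes called at 8 hpl numbered 3, with 9 for DESeq2, 8 for the 6 libraries alone and 1 to 7 without 1 library. At 16 hpl against 0 hpl they numbered 2, with 4, 1 and 0 to 3 under the same settings. Between 16 and 8 hpl the count was 0, with 6 for DESeq2, 1 with no filter and 0 to 7 without 1 library. The highest counts between 16 and 8 hpl came without 8 hpl replicate 2. Fits without 1 library called 95 to 1320 of all genes at 8 hpl and 103 to 661 at 16 hpl against 0 hpl. Such fits called 0 to 677 between 16 and 8 hpl, and limma voom called 460, 310 and 17 in the 3 comparisons. The member counts hold soul5, blvra and abcb6a, chosen for their rises at 8 hpl, so nothing is read from them.

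With the replicate number as a block, 4, 0 and 0 members and 2, 0 and 0 list genes were called in the 3 comparisons, and 147, 168 and 0 of all genes against 563, 415 and 20. The numbers do not pair the libraries: deviations of same-numbered libraries correlated at −0.43 to 0.12, and 1 of 9 libraries correlated best with its own number. Over all genes DESeq2 called 1484, 1260 and 766, and the 6 libraries alone gave 1008, 323 and 0. The call of fech at 16 hpl also ended with limma voom (adjusted p = 0.1002), with the 6 libraries alone (adjusted p = 0.0695) and with the block. It was kept with DESeq2, with other size factors and with no filter. The call of hmox2a at 8 hpl ended with the block (adjusted p = 0.0659). By CPM in place of FPKM, 4 of the 10 members changed rank at 0 hpl, 4 at 8 hpl and 8 at 16 hpl. Low counts at 0 hpl limit the fold changes of soul5 and blvra.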
